A study of Homo sapiens with 6 samples.

Results

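The 59 genes described here are neighbours on the short arm of chromosome 8, in bands 8p21 to 8p12, with 10 unlisted genes with a row of their own among them. They were followed in MDA-MB-231 cells carrying hairpins against TIP-1. They were chosen by symbol from a list, in approximate order along the chromosome. All 59 had a row in the value table, among 21214 rows that carried a gene symbol. RefSeq (GRCh38.p14) placed all of them on chromosome 8, with SORBS3 ahead of PDLIM2, and its order is used below. MDA-MB-231 is a cultured human breast cancer line that lacks the usual hormone receptors. It carried a control short hairpin RNA (shRNA), TIP-1 shRNA 162 or TIP-1 shRNA 159, and each of these 3 groups held 2 independent clones, grown overnight after reseeding and each read on 1 Affymetrix Human Gene 1.0 ST array. Whether both clones of a hairpin came from the same infected population is not given in the sources used here, so hairpin and clone history cannot be told apart. P-values measure the spread between these clones only.

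Genes on a stretch of chromosome share a DNA molecule but mostly not a pathway. This stretch holds the cluster of receptors for TRAIL, a ligand of the tumour necrosis factor family that can start apoptosis. It also holds the growth factor gene NRG1, the helicase gene WRN and subunits of the phosphatase PP2A. The short arm of chromosome 8 is often lost or gained in breast cancers. DNA copy number was not measured here.

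The list came from earlier results of these same arrays, from the differences between the 3 groups along the chromosomes. All differences of group means below are therefore descriptions, and no test of the list is given. A row is said to pass when limma's Benjamini-Hochberg adjusted p over all 21214 rows was under 0.05. Values are log2 array signals, so a difference of 1 is a 2-fold difference in signal. In bulk RNA, more cells with a transcript and more transcript per cell cannot be told apart.

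With either hairpin the target itself read lower. The TAX1BP3 row, which encodes TIP-1 and is shared with the readthrough transcript P2RX5-TAX1BP3, read 11.65 and 11.56 in the control clones, 9.85 and 10.01 with shRNA 162 and 10.40 and 10.40 with shRNA 159. Array medians over the tested rows lay between 7.86 and 7.91. The line's markers CD44, VIM, CAV1, AXL, KRT18 and EGFR read 10.2 to 13.4 on every array. ESR1, PGR and CDH1 lay below the lower quartile on 6 of 6 arrays, and ERBB2 read 7.80 to 8.19. Of the markers of other cells, CD3E, PTPRC, DCN, LUM, VWF and PECAM1 lay below the lower quartile on 6 of 6 arrays. The other 3, CD14, PDGFRB and CDH5, did so on 0 arrays and read 6.96 to 7.20, 7.08 to 7.57 and 6.99 to 7.20. PDGFRB passed as higher in shRNA 159 minus shRNA 162, by 0.41 (SE 0.08). The summed log2 levels of the 3 fibroblast markers were 15.2 to 15.3 in the control, 15.4 to 15.7 in the shRNA 162 and 15.6 to 16.0 in the shRNA 159 clones. Those of the 3 leukocyte markers with a row of their own were 18.3 to 18.5, 18.6 to 18.7 and 18.3 to 18.6, and those of the 3 endothelial markers 19.8 to 20.2, 19.9 to 20.3 and 19.6 to 19.9. Their part in the results was not tested.

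With shRNA 162 most of the members were higher than in the control clones, and with shRNA 159 they were close to control. The median over the 59 members was 0.52 for shRNA 162 minus control, a 1.44-fold higher signal, against 0.02 over all tested rows. It was 0.01 for shRNA 159 minus control, against -0.01 over all tested rows. For shRNA 159 minus shRNA 162 it was -0.50, against -0.04. Of the 59 members 54 read higher on average with shRNA 162 than in control, and 5 read lower. Over all 21214 tested rows 11746 read higher and 9468 lower.

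With shRNA 162, 35 of 59 members passed as higher than control and 0 as lower (40 and 0 at an unadjusted p under 0.05 in limma), beside 5.88% of all tested rows that passed as higher and 3.64% as lower. With shRNA 159, 1 of 59 passed as higher and 0 as lower (5 and 3 at an unadjusted p under 0.05), beside 1.69% and 0.839% of all rows. In the direct comparison of the hairpins 35 of 59 passed as lower with shRNA 159 and 0 as higher (45 and 0 at an unadjusted p under 0.05), beside 4.64% of all rows that passed as lower and 4.02% as higher. The comparisons share clones, so these counts are not separate pieces of evidence. In all, 32 members passed both against control and against shRNA 159, comparisons that share the shRNA 162 clones. The share of all tested rows that passed both is not given here. RHOBTB2, FZD3 and EXTL3 passed against control and not between hairpins. KCTD9, BNIP3L and TEX15 passed between hairpins and not against control. The other 21 passed in no comparison. With any 1 of the 6 arrays left out, 22 of the 35 members still passed for shRNA 162 minus control. The 13 that lost the call at least once were BIN3, RHOBTB2, CHMP7, DPYSL2, TRIM35, CLU, CCDC25, ESCO2, EXTL3, HMBOX1, KIF13B, LEPROTL1 and PPP2CB. Of these, RHOBTB2, DPYSL2 and TRIM35 lost it without any of the 4 control and shRNA 162 arrays. Between the hairpins 24 of 35 still passed, while KCTD9 and BNIP3L each lost the call in 5 of 6 such fits and TEX15 in 2.

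**Figure D1:**
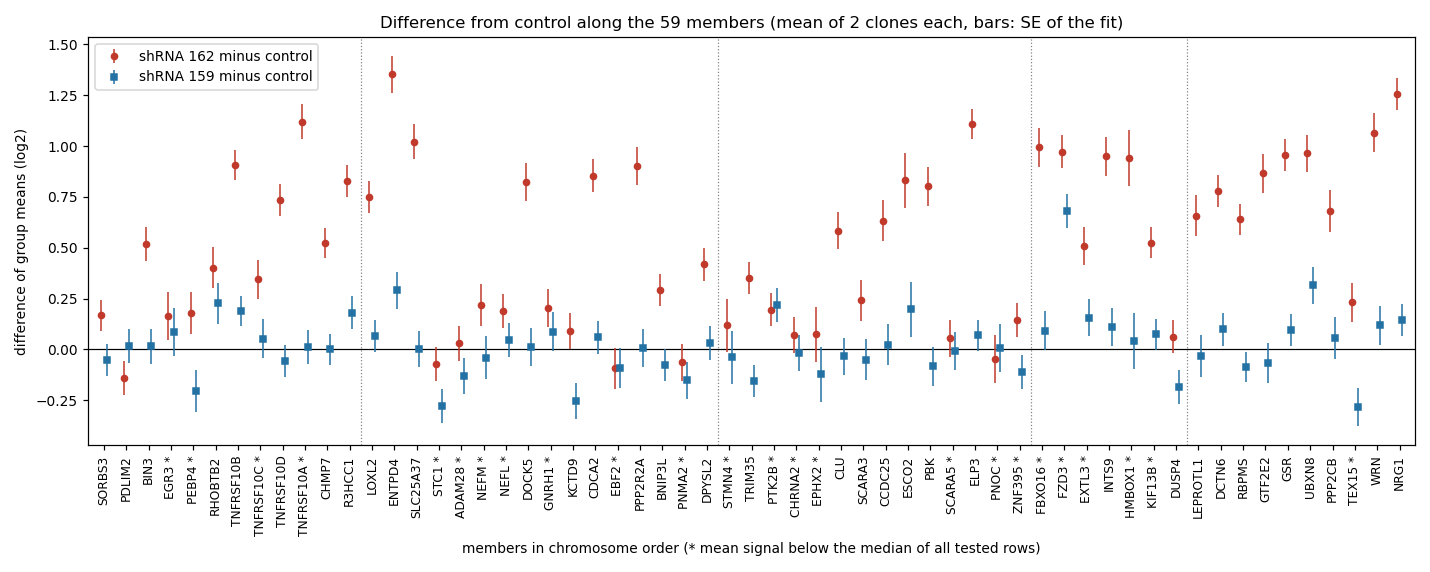
The difference from the control mean in log2 units is plotted for each of the 59 members in chromosome order, with circles for shRNA 162, squares for shRNA 159 and bars for the standard error of the fit (2 clones per group). The circles spread from -0.14 to 1.35, while all squares but that of FZD3 lie between -0.28 and 0.31. Dotted lines divide the 5 stretches described in the text, and asterisks mark rows with a mean signal below the median of all tested rows.

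The shRNA 162 clones lay above both control clones for 49 of the 59 members, beside 33.3% of all tested rows, and above both shRNA 159 clones for 50, beside 32.6%. Both stood above all 4 other arrays for 46 of the 59 members, beside 20.8% of all tested rows. The clones of a group can be compared without using any group difference. Between the 2 shRNA 162 clones the median difference over the members was -0.001 with an SD of 0.13, and 0 members differed by 0.5 or more. The control clones differed by a median of 0.02 (SD 0.13) and the shRNA 159 clones by -0.04 (SD 0.16), again with 0 members at 0.5 or more. Across groups, shRNA 162 clone 1 exceeded control clones 1 and 2 by medians of 0.54 and 0.57, and clone 2 exceeded them by 0.51 and 0.48. The shRNA 159 clones stayed near control, clone 1 at medians of 0.04 and 0.03 and clone 2 at -0.003 and -0.01 against control clones 1 and 2.

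The members whose clones differed most were EPHX2 in the control group (0.44), HMBOX1 (-0.45) and STMN4 (0.43) with shRNA 159, and ESCO2 in the control group (-0.38), each as clone 2 minus clone 1. The EPHX2 row lay below the lower quartile on 6 of 6 arrays. With shRNA 162 the largest gap was that of EGR3, at 0.26. Gene by gene, the differences of shRNA 162 clone 1 and clone 2 from the control mean correlated at 0.945 (Spearman 0.934) across the 59 members, which share the control mean and are not independent. The median size of the gap between clones was 0.10 for the members with shRNA 162 and 0.08 over all tested rows.

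**Figure D2:**
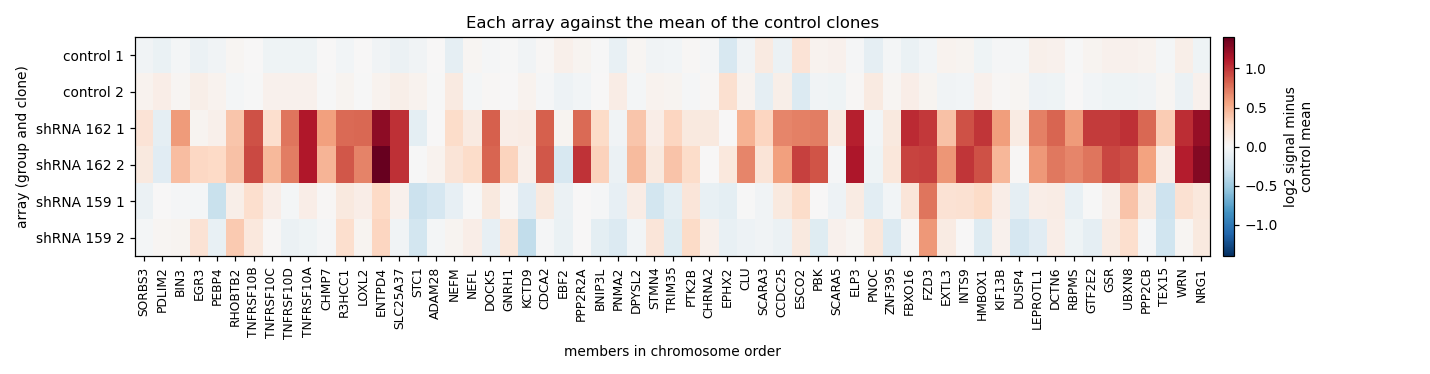
Each of the 6 arrays is a line and each member a column in chromosome order, coloured by the log2 signal minus the mean of the control clones. Both shRNA 162 arrays are red over most of the stretch and alike in pattern, the control and shRNA 159 arrays are pale, and FZD3 is red on all 4 shRNA arrays.

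The first stretch runs from SORBS3 to R3HCC1 and holds 12 members, 7 of which passed as higher with shRNA 162 (median 0.46). Here and in the next 4 stretches, such counts stand beside 5.88% of all tested rows that passed as higher. The 2 members at the telomeric end differed little. SORBS3, the vinculin-binding adaptor vinexin, read 7.99 and 8.09 in the control, 8.23 and 8.18 in the shRNA 162 and 7.96 and 8.01 in the shRNA 159 clones. PDLIM2, a PDZ and LIM domain protein, read 8.05 and 8.23 (control), 8.02 and 7.99 (shRNA 162) and 8.14 and 8.17 (shRNA 159). Its difference of -0.14 (SE 0.08) with shRNA 162 was the lowest of all members, and neither gene passed. The next gene did: BIN3, a BAR-domain protein that acts on the actin cytoskeleton, read 7.86 and 7.92, then 8.49 and 8.33, then 7.88 and 7.93. Its shRNA 162 clones lay above the other 4 arrays, by 0.52 (SE 0.08, 1.43-fold) over control. EGR3, an immediate-early transcription factor, and PEBP4, of the phosphatidylethanolamine-binding family, gave 0.16 and 0.18 and did not pass. RHOBTB2, which binds the ubiquitin ligase scaffold CUL3, read 7.80 and 7.75, then 8.17 and 8.19, then 7.86 and 8.15. It was 0.40 (SE 0.10) above control with shRNA 162, and its shRNA 159 clones were spread between both levels.

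All 4 TRAIL receptor genes lie in this stretch, TNFRSF10B and TNFRSF10A encoding the death receptors DR5 and DR4, TNFRSF10C and TNFRSF10D the decoys DcR1 and DcR2, which bind TRAIL and do not signal death. TNFRSF10B read 9.44 and 9.43 in the control clones, 10.33 and 10.36 with shRNA 162 and 9.66 and 9.58 with shRNA 159. TNFRSF10A read 7.42 and 7.54, then 8.60 and 8.60, then 7.57 and 7.41. TNFRSF10D read 9.47 and 9.60, then 10.28 and 10.26, then 9.51 and 9.45. For these 3 genes the shRNA 162 clones stood clear of all others, by 0.91 (SE 0.07, 1.88-fold), 1.12 (SE 0.09, 2.17-fold) and 0.73 (SE 0.08, 1.66-fold) over control. Death receptors and a decoy were thus both higher. TNFRSF10C, on a row shared with LOC254896 and below the lower quartile on 6 of 6 arrays, read 5.52 and 5.66, then 5.82 and 6.05, then 5.68 and 5.61. Its difference of 0.34 (SE 0.10) did not pass.

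**Figure D3:**
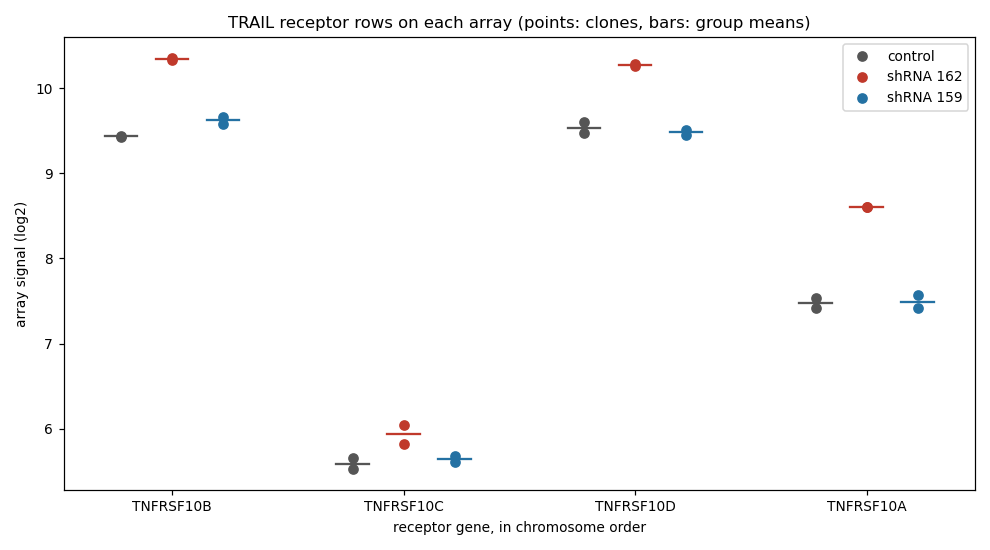
The log2 array signal of the 4 TRAIL receptor rows is shown for each clone (points) with the group mean (bars), grey for control, red for shRNA 162 and blue for shRNA 159. The red points lie above the others for every receptor, by 0.91 for TNFRSF10B, 0.34 for TNFRSF10C, 0.73 for TNFRSF10D and 1.12 for TNFRSF10A over control, and the blue points lie near the grey.

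Past the receptors, CHMP7, an ESCRT-III protein that helps to reseal the nuclear envelope, read 8.44 and 8.43 (control), 9.01 and 8.91 (shRNA 162) and 8.46 and 8.42 (shRNA 159). R3HCC1, an R3H-domain and coiled-coil protein, read 8.47 and 8.54, then 9.30 and 9.37, then 8.64 and 8.74. They were 0.52 (SE 0.08) and 0.83 (SE 0.08) above control with shRNA 162, and R3HCC1 was 0.18 above it with shRNA 159, which did not pass.

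The second stretch, LOXL2 to DPYSL2, holds 16 members with both the largest difference and many small ones, and 7 passed as higher with shRNA 162 (median 0.26). LOXL2, an enzyme that crosslinks collagen and elastin, read 10.43 and 10.41 in control, 11.22 and 11.12 with shRNA 162 and 10.52 and 10.46 with shRNA 159. ENTPD4, a nucleotide hydrolase of the Golgi and lysosomes, read 8.47 and 8.57, then 9.76 and 9.97, then 8.80 and 8.82. SLC25A37, the mitochondrial iron importer mitoferrin-1, read 9.77 and 9.95, then 10.88 and 10.88, then 9.91 and 9.81. ENTPD4 had the largest difference of all members, 1.35 (SE 0.09, 2.55-fold), with 0.29 for shRNA 159, which did not pass. SLC25A37 was 1.02 (SE 0.09, 2.03-fold) higher and LOXL2 0.75 (SE 0.08, 1.68-fold). A dimmer row of SLC25A37 read 8.64 and 8.66, then 9.78 and 10.01, then 8.74 and 8.62, a difference of 1.24 (SE 0.09) with shRNA 162, so both rows of this gene ran the same way.

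Of the genes that follow, 7 differed little or not at all from control with shRNA 162. STC1, a secreted glycoprotein hormone, gave -0.07 with shRNA 162 and -0.28 with shRNA 159. The metalloprotease gene ADAM28 gave 0.03 and the neurofilament genes NEFM and NEFL gave 0.22 and 0.19 with shRNA 162. The gonadotropin-releasing hormone gene GNRH1 gave 0.20, the transcription factor gene EBF2 -0.09 and the neuronal antigen gene PNMA2 -0.06. None of these 7 passed in any comparison, and the rows of ADAM28, GNRH1 and EBF2 lay below the lower quartile on 6 of 6 arrays.

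Between them stand members with clear signal. DOCK5, an activator of the GTPase Rac, read 8.86 and 8.89 (control), 9.71 and 9.69 (shRNA 162) and 9.01 and 8.76 (shRNA 159). CDCA2, which brings protein phosphatase 1 to chromatin at the end of mitosis, read 9.07 and 9.03, then 9.89 and 9.91, then 9.18 and 9.03. PPP2R2A, a regulatory B subunit of PP2A, read 9.09 and 9.01, then 9.84 and 10.07, then 9.06 and 9.05. These were 0.82 (SE 0.09), 0.85 (SE 0.08) and 0.90 (SE 0.09) above control with shRNA 162, and at 0.01, 0.06 and 0.01 with shRNA 159. KCTD9, a BTB-domain protein that lies between DOCK5 and CDCA2, did not follow them. It read 9.14 and 9.23, then 9.29 and 9.26, then 9.02 and 8.84, which is 0.09 (SE 0.09) over control and did not pass, though the difference of -0.34 between hairpins did.

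BNIP3L, a mitophagy receptor with the highest mean signal among the members, read 11.37 and 11.39, then 11.64 and 11.70, then 11.36 and 11.24. The groups did not overlap, but the difference of 0.29 (SE 0.08) from control did not pass, while that of -0.37 between hairpins did. DPYSL2, the microtubule-binding protein CRMP2, read 9.17 and 9.12, then 9.54 and 9.59, then 9.25 and 9.11, a difference of 0.42 (SE 0.08, 1.34-fold).

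The third stretch, STMN4 to ZNF395, holds 14 members, of which 6 passed as higher with shRNA 162 (median 0.22). STMN4, of the stathmin family, the tyrosine kinase gene PTK2B, the nicotinic receptor subunit gene CHRNA2, the epoxide hydrolase gene EPHX2, the ferritin receptor gene SCARA5 and the neuropeptide precursor gene PNOC gave 0.12, 0.20, 0.07, 0.07, 0.05 and -0.05, and none passed. PTK2B read 6.69 and 6.65 in control, 6.80 and 6.93 with shRNA 162 and 6.84 and 6.94 with shRNA 159, so both hairpin groups lay above control by similar amounts. SCARA3, a scavenger receptor, and ZNF395, a zinc finger protein, gave 0.24 and 0.14 and did not pass either.

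TRIM35, a ubiquitin ligase, read 8.29 and 8.37 (control), 8.63 and 8.73 (shRNA 162) and 8.19 and 8.17 (shRNA 159). CLU, the secreted chaperone clusterin, read 7.87 and 7.97, then 8.41 and 8.60, then 7.92 and 7.85. CCDC25, a membrane protein, read 8.23 and 8.40, then 9.01 and 8.90, then 8.45 and 8.24. In each the shRNA 162 clones were the highest, by 0.35 (SE 0.08), 0.58 (SE 0.09) and 0.63 (SE 0.10) over control. ELP3, the catalytic subunit of the tRNA-modifying Elongator complex, read 8.89 and 8.92, then 10.00 and 10.04, then 9.02 and 8.93, and was 1.11 (SE 0.08, 2.16-fold) higher, the largest difference of this stretch.

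ESCO2 acetylates cohesin in S phase and PBK is a mitotic kinase, so both are linked to proliferation. ESCO2 read 9.57 and 9.19, then 10.09 and 10.33, then 9.63 and 9.52. PBK read 9.21 and 9.11, then 9.88 and 10.04, then 9.17 and 8.99. They were 0.83 (SE 0.13, 1.78-fold) and 0.80 (SE 0.10, 1.74-fold) above control with shRNA 162. The control clones of ESCO2 were spread by 0.38, which is less than this difference.

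The fourth stretch, FBXO16 to DUSP4, holds 7 members, and 6 passed as higher with shRNA 162 (median 0.94). Several are dim rows that nevertheless differed. FBXO16, an F-box protein, read 6.33 and 6.51 in control, 7.47 and 7.36 with shRNA 162 and 6.59 and 6.44 with shRNA 159. HMBOX1, a telomere-binding homeobox protein, read 6.76 and 6.88, then 7.82 and 7.71, then 7.09 and 6.64. KIF13B, a kinesin motor, read 6.77 and 6.79, then 7.36 and 7.25, then 6.87 and 6.84. Their differences from control were 0.99 (SE 0.09), 0.94 (SE 0.14) and 0.53 (SE 0.08), on rows that were not shown to be above background. EXTL3, a glycosyltransferase of heparan sulfate synthesis, read 7.67 and 7.57, then 8.03 and 8.24, then 7.82 and 7.74, and was 0.51 (SE 0.09) higher. INTS9, a subunit of the Integrator complex, read 8.27 and 8.19, then 9.12 and 9.23, then 8.45 and 8.24, and was 0.95 (SE 0.09, 1.93-fold) higher.

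FZD3, a Frizzled receptor for Wnt ligands, was the member that passed with both hairpins. It read 6.22 and 6.29 in the control clones, 7.24 and 7.21 with shRNA 162 and 7.01 and 6.87 with shRNA 159. All 4 hairpin clones lay above both control clones, by 0.97 (SE 0.08) with shRNA 162 and 0.68 (SE 0.08) with shRNA 159. Both control values lay below the lower quartile of their arrays (2 of 6 arrays), where the row was not shown to be above background. The hairpins differed by -0.29, which did not pass. Without control clone 1 the shRNA 159 difference was 0.64 and did not pass (limma adjusted p = 0.0517, from 0.00101 to 0.0569 over its alternatives). DUSP4, a phosphatase that inactivates ERK, closes this stretch and did not pass, at 8.49 and 8.55, then 8.63 and 8.53, then 8.39 and 8.28. Its shRNA 162 clones overlapped the control clones (0.06, SE 0.08).

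The fifth stretch, LEPROTL1 to NRG1, was the most even, with 9 of 10 members passing as higher with shRNA 162 (median 0.82). In shRNA 159 minus shRNA 162, 10 of 10 passed as lower, beside 4.64% of all tested rows. The stretches differed in signal level as well. A mean signal at or above the median of all tested rows was found for 9 of these 10 members. It was found for 8 of 12, 9 of 16, 7 of 14 and 2 of 7 in the first 4 stretches. LEPROTL1, an endosomal membrane protein, read 8.86 and 8.72 in control, 9.50 and 9.40 with shRNA 162 and 8.88 and 8.64 with shRNA 159. DCTN6, a dynactin subunit, read 8.83 and 8.71, then 9.59 and 9.51, then 8.87 and 8.86. RBPMS, an RNA-binding protein, read 7.94 and 7.95, then 8.54 and 8.62, then 7.83 and 7.88. The 3 genes were 0.66 (SE 0.10), 0.78 (SE 0.08) and 0.64 (SE 0.08) above control with shRNA 162, without overlap of clones.

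GTF2E2, a subunit of the general transcription factor TFIIE, read 8.44 and 8.37, then 9.38 and 9.15, then 8.39 and 8.28. GSR, glutathione reductase, read 9.99 and 9.87, then 10.90 and 10.86, then 10.00 and 10.05. UBXN8, an endoplasmic reticulum adaptor of the ATPase p97, read 7.75 and 7.64, then 8.72 and 8.60, then 8.09 and 7.93. Their differences with shRNA 162 were close together, at 0.87 (SE 0.10), 0.96 (SE 0.08) and 0.96 (SE 0.09). UBXN8 had the largest shRNA 159 difference after FZD3, 0.31, which did not pass. PPP2CB, a catalytic subunit of PP2A, read 8.73 and 8.63, then 9.48 and 9.24, then 8.81 and 8.66, and was 0.68 (SE 0.10, 1.60-fold) higher.

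WRN, the helicase lost in Werner syndrome, read 7.59 and 7.41, then 8.54 and 8.60, then 7.71 and 7.53, and was 1.07 (SE 0.10, 2.09-fold) higher with shRNA 162. NRG1, a ligand of the ERBB receptors, read 8.61 and 8.73, then 9.89 and 9.96, then 8.82 and 8.80, and was 1.25 (SE 0.08, 2.39-fold) higher. A dimmer NRG1 row read 8.27 and 8.63, then 10.25 and 10.05, then 8.50 and 8.40, a difference of 1.70 (SE 0.12), the same direction at a larger size. TEX15, a germ cell gene, was the exception, with a row below the lower quartile on 6 of 6 arrays. It read 5.51 and 5.56, then 5.89 and 5.64, then 5.25 and 5.26, and its difference of 0.23 (SE 0.09) from control did not pass while that of -0.51 between hairpins did.

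Differences of 2-fold or more with shRNA 162 were reached by ENTPD4, NRG1, TNFRSF10A, ELP3, WRN and SLC25A37, 6 of 59 members, beside 0.226% of all tested rows that were higher by as much. With shRNA 159, 0 of 59 members were higher by 2-fold, beside 0.146% of all rows. The 6 genes are spread over 4 of the 5 stretches and include a nucleotide hydrolase, a growth factor, a death receptor, an RNA-modifying enzyme, a helicase and an iron transporter.

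Members with more signal had larger differences with shRNA 162. Of the members, 35 had a mean signal over the 6 arrays at or above the median of the tested rows (7.88) and 24 below it. With shRNA 162 the median difference was 0.75 in the brighter members, with a quartile range of 0.47 to 0.91, and 0.18 in the dimmer, from 0.07 to 0.39. Over all tested rows the brighter and dimmer medians were 0.04 and 0.01. Of the brighter members 29 of 35 passed as higher, beside 8.66% of all brighter rows, and of the dimmer 6 of 24, beside 3.09% of all dimmer rows. The mean over 6 arrays includes the shRNA 162 arrays, so rows were also split by the mean of the shRNA 159 arrays alone, which are not in the comparison (chosen after seeing the data). WRN and RBPMS then counted as dimmer. The medians were 0.75 over 33 brighter and 0.19 over 26 dimmer members, of which 27 and 8 passed as higher, beside 8.51% and 3.24% of all rows of each kind. By the mean over 6 arrays, the brighter members that did not pass were SORBS3, PDLIM2, KCTD9, BNIP3L, SCARA3 and DUSP4. The dimmer members that passed were TNFRSF10A, FBXO16, FZD3, EXTL3, HMBOX1 and KIF13B. Across the 59 members the difference with shRNA 162 correlated with mean signal at 0.514 (Spearman 0.517), and across the 35 brighter members at 0.226 (Spearman 0.348). These correlated values share the control and shRNA 162 arrays. For shRNA 159 minus control the correlation over the 59 members was 0.125.

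**Figure D4:**
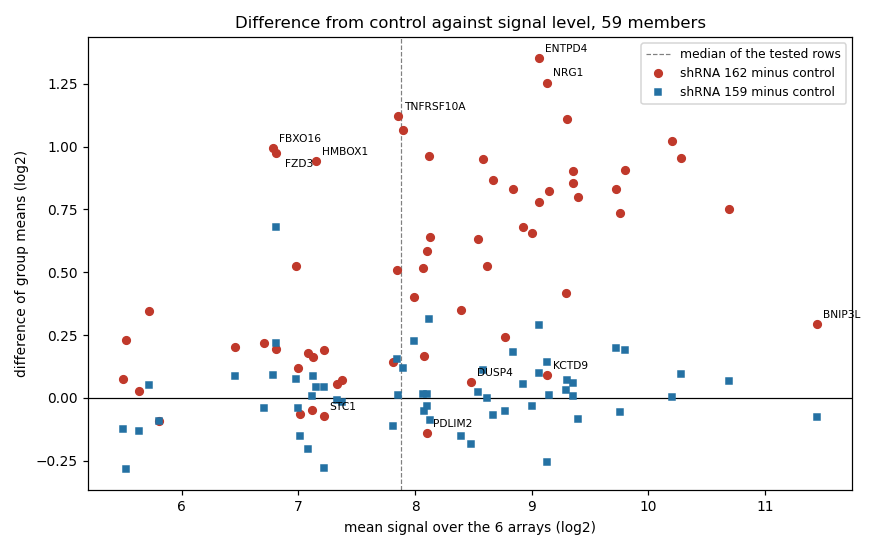
Each member is plotted by its mean log2 signal over the 6 arrays (horizontal) and its difference from the control mean in log2 units (vertical), circles for shRNA 162 and squares for shRNA 159. Right of the dashed line, the median of all tested rows at 7.88, most circles lie between 0.47 and 1.35, and left of it most lie below 0.39, while all squares but that of FZD3 (0.68, at a mean signal of 6.81) lie between -0.28 and 0.31.

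Genes that were not listed showed whether the list's edges mark an edge in the data. Between the first and the last member the annotation holds 10 other genes with a row of their own. With shRNA 162, 4 of them passed as higher and 0 as lower (median 0.19, and 5 and 0 at an unadjusted p under 0.05 in limma). Over all tested rows 5.88% passed as higher and 3.64% as lower. CCAR2, a regulator of the deacetylase SIRT1, read 8.65 and 8.58 in control, 9.60 and 9.30 with shRNA 162 and 8.78 and 8.59 with shRNA 159. SARAF, which turns off store-operated calcium entry, read 8.85 and 8.95, then 9.43 and 9.48, then 9.05 and 8.86. ADAMDEC1 (0.39) and the non-coding BIN3-IT1 (0.40) were the others, both dim, and BIN3-IT1 gave 0.35 with shRNA 159 as well, which did not pass. NKX2-6 (-0.15), NUGGC (-0.12) and MBOAT4 (-0.07) read lower and did not pass.

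Higher signal with shRNA 162 went on past both ends. Of the 15 genes before the first member 5 passed as higher and 0 as lower (median 0.21), and of the 15 after the last member 7 and 0 (median 0.32). These stand beside 5.88% of all tested rows that passed as higher and 3.64% as lower. Nearest on the telomeric side, PPP3CC, a catalytic subunit of calcineurin, gave 0.65 (SE 0.09) and SLC39A14, a zinc and iron transporter, 0.97 (SE 0.07). Both passed, and PIWIL2, the next gene out, gave 0.27 (SE 0.13) and did not. On the other side POFUT3, MAK16 and TTI2 gave 0.82 (SE 0.08), 1.16 (SE 0.10) and 0.90 (SE 0.10), and all 3 passed. With shRNA 159, 0 of these 30 flanking genes passed in either direction in limma (1 higher and 1 lower at an unadjusted p under 0.05, both after the last member). Of all tested rows 1.69% passed as higher and 0.839% as lower there. The edges of the list were thus no edges in the data.

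A running median over 15 consecutive genes of chromosome 8 placed the members within a longer region. For shRNA 162 minus control it stayed at or above 0.15 over 120 genes, from SFTPC on the telomeric side to ZMAT4 on the centromeric side, and was highest, at 0.82, from PPP2CB to NRG1. Over the same genes the running median for shRNA 159 minus control lay between -0.15 and 0.07. The chromosome held another long run at or above that level, of 66 genes on the long arm from EBAG9 to TMEM71, where the running median reached 0.59 for shRNA 162 minus control and lay between -0.11 and 0.10 for shRNA 159 minus control. The other 4 runs held 5 genes or fewer. The level of 0.15 was chosen after seeing the values, and at 0.2 the stretch broke up between PPP2R2A and ESCO2. Each median is centred on the gene named and covers 15 genes, so the ends of these runs are approximate. SFTPC itself gave 0.02 for shRNA 162 minus control.

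**Figure D5:**
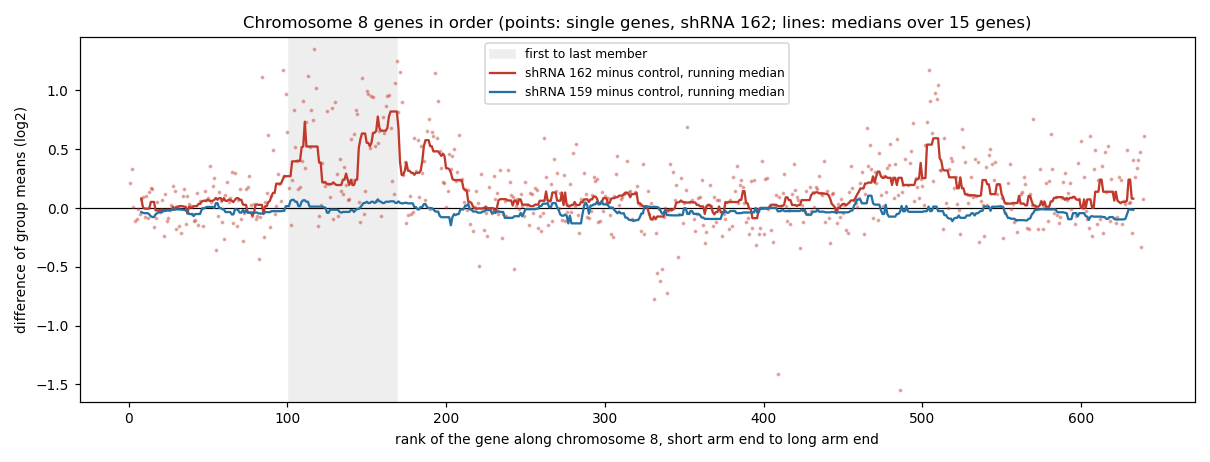
The difference from control in log2 units is plotted against the rank of 640 genes along chromosome 8, with points for single genes with shRNA 162 and lines for medians over 15 genes with shRNA 162 (red) and shRNA 159 (blue). The shaded span runs from the first to the last member (ranks 101 to 169), where the red line reaches 0.82 and stays raised past both edges while the blue line stays near 0. The red line is raised again, up to 0.59, between ranks 461 and 526.

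Partners of the members encoded elsewhere were set beside them, in 7 lists with 62 measured genes. Among these, TNFRSF11B of the TRAIL list and RAD21 lie on the same chromosome, within the run from EBAG9 to TMEM71. For shRNA 162 minus control their median was 0.01, and 3 passed as higher and 3 as lower (21 at an unadjusted p under 0.05). Over all tested rows 5.88% passed as higher and 3.64% as lower. The partners named below are single genes, and the lists were not tested as sets. Of 12 measured genes of TRAIL signalling, such as its caspases and adaptors, 0 passed in any comparison, with a median of 0.02 for shRNA 162 minus control (in limma 2 higher and 2 lower at an unadjusted p under 0.05 there, and 0 in the other comparisons). Of the 4 other members of the LOX family, LOX itself was lower with shRNA 162, at -0.81 (SE 0.12), opposite in sign to LOXL2. Of 12 other PP2A subunits PPP2R2C was lower, at -0.82 (SE 0.08) with shRNA 162 and -0.38 (SE 0.08) with shRNA 159, opposite to PPP2R2A and PPP2CB. In the neuregulin and ERBB list 0 of 7 genes passed in any comparison in limma, nor did any reach an unadjusted p under 0.05 (0 of 7).

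Among 9 other dual-specificity phosphatases DUSP10 and DUSP16 passed as higher with shRNA 162, by 0.62 (SE 0.08) and 0.71 (SE 0.09), while the member DUSP4 did not. In the glutathione and thioredoxin list GPX1, a glutathione peroxidase, was lower, at -0.42 (SE 0.08), where GSR was higher, and TXNRD1 passed between the hairpins alone (0.40, SE 0.07). Of 10 partners in mitosis and cohesion RAD21, a cohesin subunit encoded on the long arm of chromosome 8 within the run from EBAG9 to TMEM71, passed as higher (0.33, SE 0.09). The median of that list was 0.24 with shRNA 162 and 0.03 with shRNA 159. With shRNA 162, 10 of 10 of these genes read above control, beside 11746 of 21214 tested rows. Their differences were smaller than those of ESCO2, PBK and CDCA2. At an unadjusted p under 0.05 in limma, 6 were higher and 0 lower, beside 3329 and 1993 of all tested rows.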

How the data were processed

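RNA of 6 MDA-MB-231 cultures was read on Affymetrix Human Gene 1.0 ST arrays. Per the labels and design text, the authors processed the arrays with the Affymetrix Exon Array Computational Tool; for its settings and the genome build, nothing is given in the sources used here. The deposited values are log2 signals, 1 per row and array; the log2 base was inferred from their range, 2.29 to 14.65. They were used without further scaling. Arrays have no count depth, so precision is limited by their number.

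Genes were named through the platform's annotation (19460 rows with 1 symbol, 1754 with several, 12083 with none), and ordered with RefSeq. The 21214 rows with a symbol were fitted with limma 3.58.1 in R 4.3.3 (3 groups, lmFit and eBayes, 3 residual and 5.31 prior degrees of freedom), two-sided, and a row passed at an adjusted p under 0.05. A gene with several rows was taken by its row with the highest mean. The fit was also run on simulated rows with independent noise. These hold no clone effects shared between genes, so that run cannot speak to such effects. Figures were drawn with matplotlib 3.10.9.

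The members and lists were chosen with earlier results of these data known. Any of the 59 members could be named, with values on every array for those that passed in at least 1 comparison, beside the listed neighbours and partners. The values on every array of SORBS3, PDLIM2, TNFRSF10C, PTK2B and DUSP4, and the stretch from SFTPC to ZMAT4, were added after the values were seen. No detection calls were used. Partner genes without a row of their own were not used here. Alternatives were the brighter rows, all rows, quantile normalization, centred arrays, an intensity trend, only the 4 arrays compared, a replicate block, averaged rows of a gene and leaving out each array; the split of rows by the shRNA 159 arrays was added after seeing the data.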

Additional observations from a re-analysis of the deposited data

How the results depend on the processing

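With shRNA 162, 27 to 36 members passed as higher than control under all alternatives that kept 6 arrays or the 4 compared (35 as reported). The share of fitted rows that passed in either direction varied more, so similar counts stood beside unlike shares. It was 9.52% as reported, 2.08% with all rows of the table, 16.4% with an intensity trend and 29.1% with only the brighter rows. For shRNA 159 minus shRNA 162, 25 to 38 passed as lower under the same alternatives. Beside them 1.78% (all rows of the table) to 23.3% (only the brighter rows) of the fitted rows passed in either direction, and 8.65% as reported. In both comparisons 0 passed in the other direction. Of the 71 calls of members over the 3 comparisons, 19 did not pass when all rows were tested and up to 17 did not with an array left out, the most without shRNA 162 clone 1; none changed sign under the alternatives run. With only the brighter rows fitted, the median over the 35 members left was 0.75 for shRNA 162 minus control and -0.68 between the hairpins, because the dimmer members were not in it. The 29.1% of rows that then passed in the former is a share of the brighter rows, in either direction. Leaving out 1 array moved the median for shRNA 162 minus control between 0.47 and 0.57, lowest without shRNA 162 clone 1 and highest without clone 2. For shRNA 159 minus control the count was 0 when all rows of the table were tested (8 members at an unadjusted p under 0.05 in limma), beside 0.333% of the fitted rows. The median of that comparison, 0.01, ranged from -0.0006 (without control clone 1) to 0.0319 (without control clone 2) with 1 array left out, so it has no stable sign. With only the brighter rows, where FZD3 is not tested, 1 of 35 members passed (UBXN8), beside 8.92% of the brighter rows in either direction. With the clone number as a replicate block the counts were 35, 1 and 35. Beside them 10%, 2.75% and 9.35% of the fitted rows passed in either direction. Between the hairpins, however, KCTD9 lost its call (limma adjusted p = 0.0504, against 0.0471 without the block) and PEBP4 gained one (0.0228, against 0.0599). Same-numbered clones deviated together at correlations of -0.052, 0.263 and -0.028, so the numbers were not taken as pairs.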
